A study of Fragaria vesca with 3 samples.

Results

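FvSEP3 entries that the depositors placed in 5' untranslated regions numbered 1255 of the 13283 entries of the merged peak list (9.45%). They are the entries whose position annotation begins with 5' UTR, the transcribed stretch of a gene between its start and its start codon, and no measured value was used to choose them. FvSEP3 is a MADS-domain transcription factor of woodland strawberry (Fragaria vesca). Its binding was measured by DNA affinity purification sequencing, an assay in which the protein is mixed with sheared, purified genomic DNA and the fragments it retains are sequenced. The DNA came from wild-type fruit at 30 days post anthesis, with 2 immunoprecipitation (IP) replicates and 1 input library. Each merged entry pairs a peak of IP replicate 1 with a peak of IP replicate 2. The replicate lists held 1744 5' UTR peaks of 19298 (9.04%) and 1854 of 21823 (8.50%). No read counts were held, so the depth of the libraries is unknown. The assay shows which naked DNA the protein can bind, not what it binds in the fruit cell. The replicates are described as biological and independent, without saying whether that means separate plants or separate binding reactions, so the spread between them may be partly technical. How the FvSEP3 protein was made is not given in the labels.

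SEPALLATA proteins act in complexes with other MADS-domain proteins, which bind DNA at a sequence known as the CArG box, and they are best known for floral organ identity and for fruit development. Plant transcription factors often bind close to gene starts, on either side of them. A 5' UTR can hold introns, so a site in it may lie far from the gene start. Fold enrichment below is the authors' value for each peak, the signal over background given by the peak caller, and it is used here only to describe and rank entries. With 2 IP lists and no counts, entries are not replicates of a condition, so no p-values are given for any difference between classes or lists, and none of those differences was tested. Intervals given with shares cover counting error only.

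The 5' UTR entries lay close to gene starts, most of them within 500 bp. The median distance was 187 bp, with quartiles at 91.5 and 342.5 bp, and 1091 of the 1255 (86.9%) lay within 500 bp. The distance was always above 0, from 1 to 8163 bp. In exon and intron entries it also fell below 0, down to -9879 and -11623 bp. In 50-bp bins the largest number was in the first bin, from 1 to 50 bp, with 177 entries. The distance was measured from the midpoint of the merged interval, since midpoint and distance gave a single start within 2 bp for 1769 of 1769 transcripts with several entries. The intervals were long beside these distances, with a median length of 386 bp (216 to 1236 bp). In 672 entries (53.5%) the interval therefore reached across the gene start into the sequence upstream of it. Other merged entries had a median length of 395 bp. The 5' UTR was the most frequent class just inside the gene start. It held 65.6% of all entries at 1 to 50 bp, 34.6% at 201 to 300 bp, 23.8% at 301 to 500 bp and 7.62% at 501 to 1000 bp. Of the 2714 entries 1 to 500 bp inside a start, 1091 were in 5' UTRs, 912 in exons and 689 in introns. How much annotated 5' UTR lies at each distance was not analysed here.

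**Figure D1:**
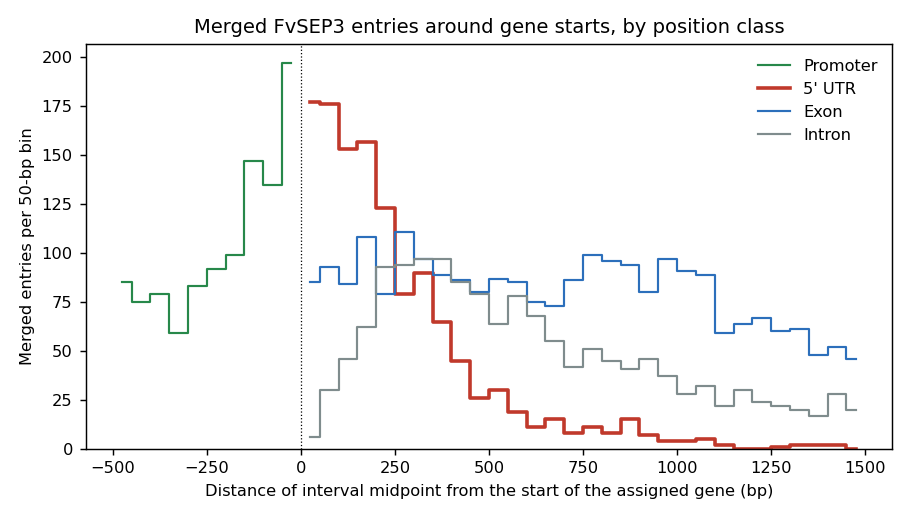
Number of merged entries per 50-bp bin against the distance of the interval midpoint from the start of the assigned gene, in bp, for promoter, 5' UTR, exon and intron entries. The 5' UTR entries begin at 177 in the first bin and decline with distance, while exon entries number 73 to 111 in each bin up to 700 bp.

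A small group of 36 entries (2.87%) lay more than 1000 bp from the assigned start. Whether the 5' UTR of an entry is that of its assigned gene was not checked here. The farthest was assigned to FvH4_3g45741, a calpain-type cysteine protease described as DEK1, known in Arabidopsis and maize for its part in epidermal development. This gene held 3 of the 5' UTR entries, at 2443, 3197 and 8163 bp from a start that midpoint and distance place at 37958526 on the minus strand of chromosome 3 (positions are as deposited, with no build named). Their mean fold enrichments were alike, at 3.09, 3.16 and 3.14. The next farthest were an entry 4013 bp inside FvH4_1g30020, a potassium channel described as SKOR, and an entry 3518 bp inside FvH4_2g41001, which has no description. Their fold enrichments of 3.21 ± 0.135 and 3.72 ± 0.153 (SD, n = 2) were above the class median. The peak of SKOR was called intron in replicate 2, and that of DEK1 at 3197 bp was called intron in replicate 1.

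The fold enrichment of 5' UTR entries was that of the merged list as a whole. The median was 3.12 in 5' UTR entries (quartiles 2.82 and 3.45) and 3.12 in the other 12028 entries (quartiles 2.81 and 3.48), a difference of -0.00048. In replicate 1 the medians were 3.12 for both, and in replicate 2 they were 3.10 and 3.12. The sign of the difference varied over the genome, with a higher median in 5' UTR entries on 4 of 7 chromosomes and a lower one on 3. Among the classes of the merged list, medians ran from 3.09 in introns to 3.17 downstream of genes. The median −log10 p was 13.0 in 5' UTR entries and 13.1 in the others. The share of strong entries in 5' UTRs was near that of the whole list. In the highest 10% of the list by mean fold enrichment, at or above 3.82, there were 105 of the 1255 (8.37%, 95% Wilson interval 6.96 to 10.03), against 10% of all merged entries. At or above 4-fold there were 60 (4.78%, 3.73 to 6.11), against 5.69% of all merged entries. In both cases the interval held the value of the whole list, which includes the 5' UTR entries. The other entries had 10.2%, just above the first interval, and 5.79%, inside the second. With each replicate list taken alone, the share in its highest 10% was 10.3% in replicate 1 and 9.49% in replicate 2, so it lay above 10% in one and below it in the other. At or above 5-fold there was 1 entry in a 5' UTR (0.0797%, 0.0141 to 0.450) and 26 elsewhere, against 0.203% of all merged entries. None of the 5' UTR entries lay on a contig, where the other classes had 92, which is 0.693% of all merged entries.

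Fold enrichment varied little with distance. The entries nearest to the start, at 1 to 50 bp, had a median of 3.06 (n = 177), and those farther than 100 and up to 500 bp away had 3.16 (n = 738). The difference had the same sign in both replicates, with 2.93 against 3.15 in replicate 1 and 3.03 against 3.11 in replicate 2, and on 6 of 7 chromosomes. Exon entries at 1 to 50 bp had 3.22 (n = 85). At 201 to 300 bp the medians were 3.14 in 5' UTRs, 3.17 in exons and 3.14 in introns. Across the 1255 entries Spearman's rho was 0.0421 between fold enrichment and distance and 0.0138 between fold enrichment and length. These are correlations across entries of the same 2 libraries and are given as a description. Entries whose interval crossed the gene start had a median of 3.12, as did those whose interval did not (3.12).

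**Figure D2:**
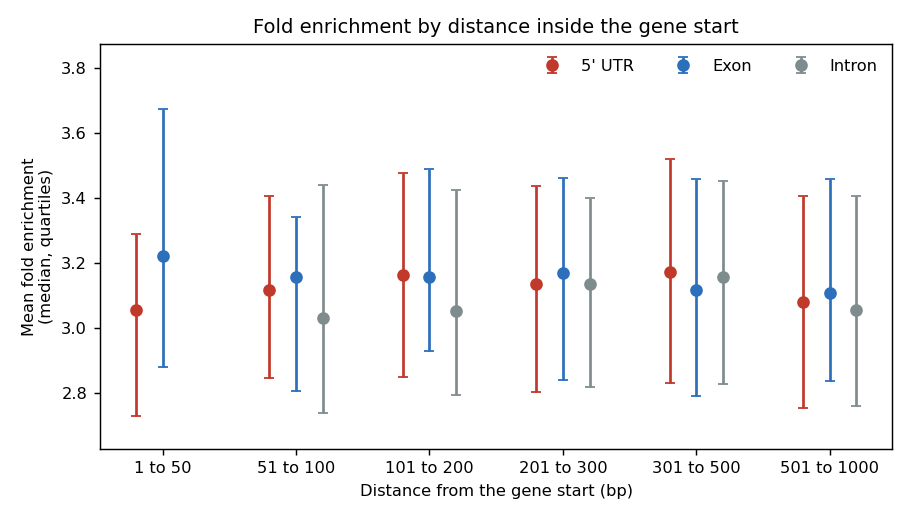
Mean fold enrichment of merged entries (points are medians, bars are quartiles) by distance inside the gene start in bp, for 5' UTR, exon and intron entries. Bins with under 20 entries are not drawn. The quartile ranges of all classes overlap in every bin drawn, and the 5' UTR median is lowest, at 3.06, from 1 to 50 bp.

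The position class of a 5' UTR entry often differed from that of its paired peaks in the replicate lists, while its gene seldom did. Distances in the replicate lists are from a point other than the interval midpoint. The effect of this on the class was not tested. The gene assigned was the same in both replicates for 1248 of the 1255 entries (99.4%). This share was not computed for the other classes or for all merged entries. The paired peaks were called 5' UTR in both replicate lists for 855 entries (68.1%), in 1 list for 223 and in neither for 177. Over all merged entries the class was kept in both lists for 82.8%, with 97.5% for distal intergenic entries, 88.0% for promoters, 78.5% for exons and 73.9% for introns. In replicate 1 the paired peaks of the 5' UTR entries were otherwise called promoter (133), intron (93) or exon (62), and in replicate 2 promoter (118), intron (94), exon (76) or 3' UTR (1). The class was kept least near the start, for 45.8% of entries at 1 to 50 bp against 77.7% at 201 to 300 bp. Of the 177 entries at 1 to 50 bp, 80 had a peak called promoter in 1 or both replicates. Entries called 5' UTR in both lists had a median fold enrichment of 3.19, and those called so in neither had 3.02. For the genes named in this report, the class of single peaks is given in some cases only.

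Peaks in 5' UTRs entered the merged list somewhat more often than other peaks. In replicate 1, 1237 of 1744 did so (70.9%, 95% Wilson interval 68.8 to 73.0), against 68.6% of other peaks and 68.8% of all. In replicate 2, 1226 of 1854 did so (66.1%, 63.9 to 68.2), against 60.4% of other peaks and 60.9% of all. Exon peaks had 73.0% and 62.3%. With each replicate list divided into 5 parts of equal size by fold enrichment, the 5' UTR share was above that of other peaks in every part of both lists. The difference was largest in the second lowest part of replicate 2, at 61.8% against 55.0%, and smallest in the highest part of replicate 1, at 79.7% against 79.3%. The fold enrichments of the 2 replicates followed each other across 5' UTR entries with a Spearman's rho of 0.504, against 0.538 across the other entries. The median absolute difference between replicates was 0.342 in either case. It was over 1 in 79 of the 5' UTR entries (6.29%) and in 6.13% of the others. The widest differences were at FvH4_3g24010, a probable WRKY transcription factor 20, with 4.68 in replicate 1 and 2.65 in replicate 2, and at FvH4_7g25970, a response regulator of cytokinin signalling described as ARR17, with 4.77 and 3.16.

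**Figure D3:**
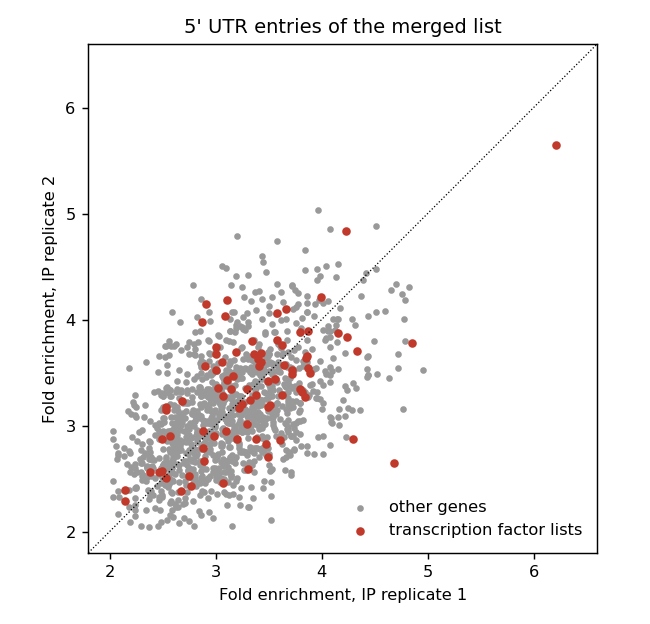
Fold enrichment in IP replicate 2 against IP replicate 1 for the 1255 5' UTR entries, with entries of genes in the transcription factor lists in red and the diagonal dotted. The entry of scarecrow-like protein 30 stands alone at 6.21 and 5.65, and the rest form a single cloud along the diagonal.

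The strongest 5' UTR entry belonged to FvH4_3g36670, described as scarecrow-like protein 30, a transcriptional regulator of the GRAS family. It lay on chromosome 3 from 31432966 to 31433242, 311 bp inside the gene start, with fold enrichments of 6.21 in replicate 1 and 5.65 in replicate 2 (5.93 ± 0.398, SD, n = 2), and ranked 6 in the whole merged list. The remaining 9 of the highest 10 were between 4.47 and 4.70. FvH4_5g22590, a 14 kDa protein of the signal recognition particle, which delivers newly made proteins to the endoplasmic reticulum, had 4.51 and 4.88. FvH4_3g27800, calcium-dependent protein kinase 34, had 4.82 and 4.30 at 60 bp from the start. FvH4_1g07390, GATA transcription factor 21, a regulator of greening in Arabidopsis, had 4.23 and 4.83 at 199 bp.

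Among the same 10 were 2 genes of ubiquitin-type conjugation. FvH4_1g14060, the NEDD8-conjugating enzyme Ubc12, had 4.70 and 4.34, and FvH4_1g29560, ubiquitin-conjugating enzyme E2 22, had the closest pair of values, 4.51 and 4.47. The peak of Ubc12 was called intron in replicate 2. FvH4_4g26160, described as a homolog of MAF1, a repressor of RNA polymerase III, had 4.76 and 4.24. FvH4_4g30930, described as a phosphate transporter of the PHO1 type, had the most unequal pair of the 10, with 3.97 and 5.03 at 915 bp. FvH4_7g04940, described as ETHYLENE INSENSITIVE 3-like 1, a transcription factor that carries out ethylene responses, had 4.79 and 4.19. FvH4_4g10110, an acyl-carrier-protein desaturase of fatty acid synthesis, had 4.65 and 4.28. At the low end were FvH4_4g29541, described as FAR1-RELATED SEQUENCE 5-like, with 2.08 and 2.17, and the uncharacterized FvH4_5g05550, with 2.19 and 2.09. The peak of FvH4_5g05550 was called exon in replicate 2.

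The 1255 entries were assigned to 1227 genes, of which 1203 had 1 entry in the 5' UTR, 20 had 2 and 4 had 3. Besides DEK1, the genes with 3 were FvH4_4g23530 (transcription factor MADS-box 2), FvH4_4g21420 (squamosa promoter-binding-like protein 12) and FvH4_5g02310 (a lysine-specific demethylase described as rbr-2). Entries of the demethylase gene spanned the widest range of fold enrichment, 3.83, 3.09 and 2.21, at 1731, 821 and 2433 bp from the start. The 2 entries of the ETHYLENE INSENSITIVE 3-like 1 gene lay 303 and 1073 bp from a start at 5339740 on chromosome 7, with 3.31 and 4.49. An entry of another class was also assigned to 325 of the 1227 genes (26.5%), in an exon for 110, a promoter for 89, an intergenic position for 75, an intron for 69, a 3' UTR for 23 and just downstream for 2. Genes with 2 or more entries of any class made up 28.2% of the 5' UTR genes and 18.7% of the other 9447 genes of the merged list. A gene with more entries has more chances to hold one in its 5' UTR, so these shares are not independent of the choice.

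The genes with a 5' UTR entry more often had a description and more often were described as transcription factors than the other genes of the merged list. Only 25 of the 1227 (2.04%) had no description, against 12.5% of the other genes. How many of the other genes have an annotated 5' UTR at all was not analysed here. The genes were grouped by words in their descriptions into 33 lists, chosen with earlier results of these data known, and a gene can be in several lists. Genes of the 13 transcription factor lists had a 5' UTR entry in 78 of 329 cases (23.7%, 95% Wilson interval 19.4 to 28.6), against 11.5% of all genes of the merged list. The share was 12.7% of genes with a description and 13.8% of genes with a description other than uncharacterized. In the replicate lists the transcription factor share was 107 of 433 (24.7%) against 11.9% of all genes in replicate 1, and 98 of 467 (21.0%) against 11.6% in replicate 2. The share of described genes was not computed for the replicate lists. The values of all genes in the replicate lists, here and below, thus include genes without a description, which no list can hold. Put the other way, transcription factors of these lists made up 6.36% of the 5' UTR genes and 2.66% of the other genes. Of their 414 merged entries, 83 were in 5' UTRs and 84 in promoters. Their share in 5' UTRs was thus near their 20.3% in promoters, where all entries had 9.45% and 20.1%. They had 20.8% in exons (against 26.4%) and 11.4% in introns (against 17.7%). The length of the annotated 5' UTRs of these genes was not analysed here.

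The 5' UTR entries of transcription factor genes were also somewhat stronger. Their median fold enrichment was 3.34 (83 entries), against 3.11 for the other 1172 5' UTR entries. Among the latter, entries of uncharacterized genes had 3.07 (271 entries). Most lists outside the transcription factors had medians below 3.34. Higher ones included the gibberellin, cytokinin and brassinosteroid list at 3.46 (8 entries) and the flavonoid and phenylpropanoid list at 3.68 (2 entries). For transcription factor genes against all other genes the 5' UTR medians were 3.33 against 3.11 in replicate 1 and 3.35 against 3.09 in replicate 2. The sign was the same on 7 of 7 chromosomes. Entries of the transcription factor lists in other positions had a median of 3.16 (331 entries), against 3.12 for other genes. In the highest 10% by fold enrichment were 11 of the 83 (13.3%, 7.56 to 22.2), against 10% of all merged entries.

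**Figure D4:**
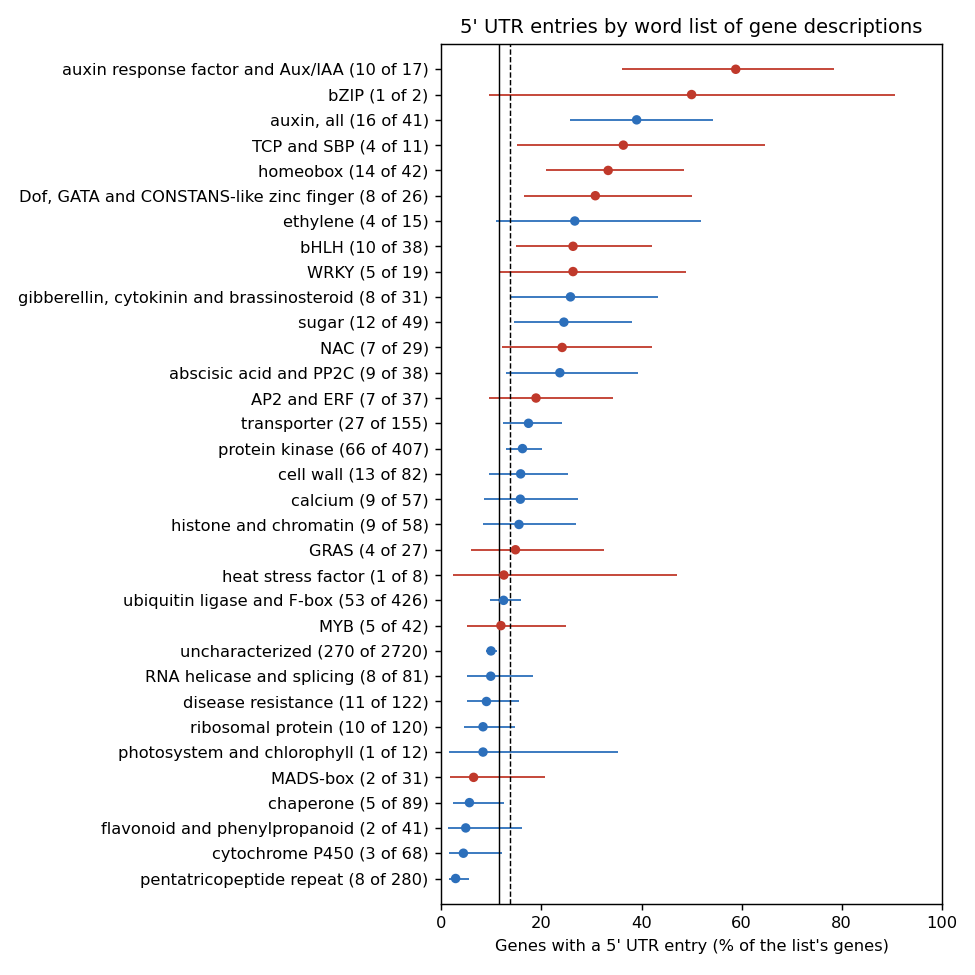
Share of the genes of each word list that had a 5' UTR entry, in percent, with 95% Wilson intervals for counting error as bars and the counts beside the names. Transcription factor lists are red and other lists blue. The solid line marks 11.5%, the share of all genes of the merged list, and the dashed line 13.8%, the share of genes with a description other than uncharacterized. The auxin response factor and Aux/IAA list is highest at 58.8% and the pentatricopeptide repeat list lowest at 2.86%.

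Auxin response factors and Aux/IAA proteins, the DNA-binding factors and the repressors of auxin signalling, had the highest share of the 33 lists in the merged list, though not in each replicate list. Of their 17 genes in the merged list, 10 had a 5' UTR entry (58.8%, 36.0 to 78.4). The replicate lists, which hold more genes of the family, gave 9 of 21 (42.9%) and 10 of 25. In replicate 1 the WRKY list had the same share (12 of 28), and in replicate 2 the TCP and SBP list had a higher one (8 of 17, 47.1%). FvH4_6g32450, described as IAA26-like, was the strongest, with fold enrichments of 4.16 in replicate 1 and 3.87 in replicate 2 at 475 bp from the start. FvH4_3g32860, auxin response factor 4, had 3.58 and 4.06 at 187 bp, and FvH4_5g33790, IAA8-like, had 3.58 and 3.80 at 125 bp. The peak of IAA8-like was called promoter in replicate 1.

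The other 7 genes of the family had lower values. FvH4_5g27860 (auxin response factor 1), FvH4_5g09310 (auxin response factor 2) and FvH4_2g22520 (AUX28-like) had means of 3.56, 3.53 and 3.51. FvH4_4g21780 (IAA31), FvH4_1g02700 (IAA20-like), FvH4_3g05010 (auxin response factor 6) and FvH4_6g39140 (auxin response factor 6-like) had means of 3.19, 2.85, 2.84 and 2.64. The 10 entries lay 23 to 475 bp from the start. The 7 genes of the family without a 5' UTR entry had theirs in promoters (4 genes, 1 of them also with an intergenic entry), or at an intergenic position, in an intron, or in an exon and an intergenic position (1 gene each). The paired peaks of IAA31 were called exon, and those of auxin response factor 6-like promoter, in both replicate lists. In the wider auxin list, 16 of 41 genes (39.0%) had a 5' UTR entry, the strongest at FvH4_4g32450, an efflux carrier that moves auxin out of cells, with 4.05 and 4.50 at 72 bp.

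**Figure D5:**
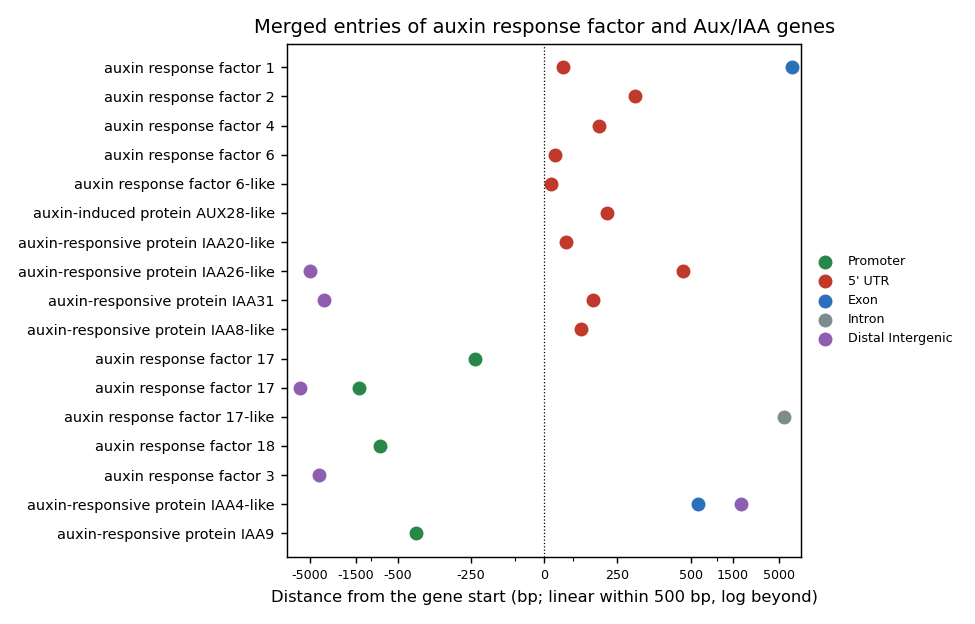
Position of every merged entry of the 17 auxin response factor and Aux/IAA genes relative to the gene start, in bp on an axis that is linear within 500 bp and logarithmic beyond, coloured by position class. The 10 genes with a 5' UTR entry, in the upper rows, have it 23 to 475 bp inside the start.

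Homeobox genes, which include regulators of meristems and of the epidermis, had 14 of 42 with a 5' UTR entry (33.3%, 21.0 to 48.4). FvH4_6g43390 (HDG2, a homeobox-leucine zipper protein) had 4.85 and 3.78, FvH4_5g17270 (WUSCHEL-related homeobox 1) had a mean of 4.11 ± 0.151 (SD, n = 2) and FvH4_6g07460 (knotted-1-like 1) had 3.11 and 4.18. The replicate lists gave 21 of 55 and 15 of 60. TCP and SBP genes, which act in organ growth and phase change, had 4 of 11 (36.4%, 15.2 to 64.6), led by FvH4_7g10680, squamosa promoter-binding-like protein 7, a copper regulator in Arabidopsis, with 3.87 and 3.90. Both genes described as squamosa promoter-binding-like protein 12 held several 5' UTR entries. FvH4_4g23650 had 2, at 342 and 60 bp with means of 3.75 and 3.33, and FvH4_4g21420 had 3 over 2 transcripts with means of 3.46, 3.24 and 3.04. The peak of FvH4_4g23650 at 342 bp was called promoter in replicate 1.

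The list of Dof, GATA and CONSTANS-like zinc finger factors had 8 of 26 (30.8%, 16.5 to 49.99). Beside GATA transcription factor 21, FvH4_4g27390 (CONSTANS-LIKE 16) had 3.63 and 3.76, and FvH4_7g10740 (GATA transcription factor 4-like) had 3.79 and 3.35. bHLH genes had 10 of 38 (26.3%), with FvH4_3g07920 (bHLH106-like) first at 4.24 and 3.83. Next were FvH4_4g15850 (bHLH57-like) at 3.64 and 3.57 and FvH4_2g23700 (basic helix-loop-helix protein A) at 3.09 and 4.04. WRKY genes, many of them known in defence, had 5 of 19 (26.3%), but 12 of 28 (42.9%) in replicate 1 and 9 of 29 (31.0%) in replicate 2, with FvH4_5g04370 (WRKY 53) at 4.33 and 3.70 and FvH4_6g28650 (WRKY 40) at 4.29 and 2.87. NAC genes had 7 of 29 (24.1%). Both of their strongest, FvH4_7g17540 at 3.79 and 3.88 and FvH4_5g10690 at 3.86 and 3.66, were described as NAC domain-containing protein 43-like, a type known in Arabidopsis for secondary wall formation, and FvH4_1g12050 (NAC 7) followed at 3.81 and 3.32.

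The other transcription factor lists had lower shares or few genes. AP2 and ERF genes had 7 of 37 (18.9%), but 7 of 59 (11.9%) in replicate 2, near the 11.6% of all its genes. They were FvH4_1g05820 (TINY) at 3.66 and 4.10, FvH4_7g30930 (CRF4) at 3.87 and 3.54, FvH4_7g26930 (ERF105-like) with a mean of 3.37, and 4 others. The peak of ERF105-like was called exon in replicate 1. GRAS genes had 4 of 27 (14.8%), including FvH4_1g04080, a DELLA protein described as GAI-like and thus of the repressors of gibberellin responses, at 3.89 and 3.50, and FvH4_5g00020 (scarecrow-like protein 6) at 3.50 and 3.18. The peaks of scarecrow-like protein 6 were called promoter in both replicate lists. MYB genes had 5 of 42 (11.9%), among them FvH4_4g32290 (MYB6-like) at 3.34 and 3.80 and FvH4_5g32320 (MYB6) at 3.36 and 3.67. Their first by fold enrichment, FvH4_2g15400, matched by its words as target of Myb protein 1-like and is not a MYB factor. In the replicate lists the MYB share was 6 of 57 (10.5%) and 6 of 54 (11.1%), under the 11.9% and 11.6% of all genes. Heat stress factors had 1 of 8, FvH4_5g01770 (B-2b) at 2.53 and 3.15, and bZIP genes 1 of 2, FvH4_5g38360 (ABSCISIC ACID-INSENSITIVE 5-like protein 3) at 3.29 and 3.35. The bZIP list had 2 of 5 in replicate 1 and 1 of 6 in replicate 2.

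MADS-box genes, to whose family FvSEP3 belongs, were the single transcription factor list under 11.5% in the merged list. The MYB list was over it with target of Myb protein 1-like counted, which is not a MYB factor. A 5' UTR entry was found for 2 of 31 MADS-box genes (6.45%, 1.79 to 20.7). It was found for 5 of 42 (11.9%) in replicate 1 and 6 of 39 (15.4%) in replicate 2, against 11.9% and 11.6% of all genes. Of the 31 genes, 4 are described as APETALA 2-like, which matched by the words floral homeotic and are not MADS-box factors. FvH4_4g23530, transcription factor MADS-box 2, held 3 of the 5' UTR entries. They lay on chromosome 4, at 60, 678 and 1687 bp from a start at 25998939 on the plus strand. Their values were 3.72 and 3.52 for the first, from 25998747 to 25999251, 3.56 and 3.44 for the second, from 25999432 to 25999802, and 3.11 and 3.43 for the third, from 26000512 to 26000740. All 3 were called 5' UTR in both replicate lists. The other gene was FvH4_5g14780, described as the floral homeotic protein FBP1, with 2.50 and 2.57 at 142 bp from the start.

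Hormone lists other than auxin also had shares above that of all genes. The ethylene list had 4 of 15 (26.7%, 10.9 to 52.0), and beside ETHYLENE INSENSITIVE 3-like 1 it held FvH4_4g03030 (ethylene receptor 2), with 2.51 and 3.17. The list of abscisic acid genes and type 2C protein phosphatases, some of which are known to act in abscisic acid signalling, had 9 of 38 (23.7%). Its strongest were FvH4_4g17950 (phosphatase 2C 40) at 3.98 and 4.41, FvH4_1g11150 (2C 46) at 3.47 and 3.64 and FvH4_2g34570 (2C 12) at 3.14 and 3.89. The peak of 2C 12 was called exon in replicate 1. The gibberellin, cytokinin and brassinosteroid list had 8 of 31 (25.8%). It was led by ARR17 and by FvH4_5g16240, an ARR5-like response regulator of cytokinin signalling, at 3.81 and 4.01, whose peaks were called promoter in both replicates. The third, FvH4_5g14560 (APRR1, a clock component in Arabidopsis) at 3.68 and 3.90, matched by the words response regulator.

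Among the ripening lists, sugar genes had 12 of 49 with a 5' UTR entry (24.5%, 14.6 to 38.1), with 17 of 68 and 21 of 75 in the replicate lists. FvH4_5g00270, a probable trehalose-phosphate phosphatase F, had 4.08 and 4.85 at 207 bp, FvH4_7g21580, a neutral/alkaline invertase that splits sucrose, had 4.78 and 4.01 at 61 bp and FvH4_4g18710, sucrose synthase 2, had 3.99 and 3.61 at 137 bp. Cell wall genes had 13 of 82 (15.9%, 9.51 to 25.3). They were led by FvH4_1g00290, a polygalacturonase, an enzyme that cuts pectin, at 3.73 and 4.10, by FvH4_1g24090, a pectinesterase described as 51, at 3.41 and 4.27, and by FvH4_6g37310, a xyloglucan glycosyltransferase, at 3.70 and 3.17. Flavonoid and phenylpropanoid genes had 2 of 41 (4.88%, 1.35 to 16.1), with 9.62% and 6.45% in the replicate lists. These were FvH4_6g16060, phenylalanine ammonia-lyase 1, the entry enzyme of the pathway, with 3.93 and 4.03 at 69 bp, and FvH4_7g33990, 4-coumarate--CoA ligase 2-like, with 3.23 and 3.55 at 95 bp. Together the 3 ripening lists had 27 of 172 genes (15.7%, 11.0 to 21.9), an interval that held both 11.5% and 13.8%. In the replicate lists they had higher shares, 42 of 242 (17.4%) and 48 of 262 (18.3%), against 11.9% and 11.6% of all genes, with or without a description.

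Lists of signalling, transport, protein turnover and chromatin genes had shares between 12.4% and 17.4%. All genes had 11.5%, and genes with a description other than uncharacterized 13.8%. In the replicate lists protein kinases had 15.7% and 16.6%, transporters 18.9% and 13.9% and calcium genes 17.8% and 13.9%. Ubiquitin and F-box genes had 13.6% and 12.6% there and chromatin genes 11.8% and 11.1%, against 11.9% and 11.6% of all genes. Protein kinases had 66 of 407 (16.2%, 13.0 to 20.1), with FvH4_6g44063 (a lectin receptor kinase) at 3.48 and 4.45 and FvH4_5g05780 (a leucine-rich repeat receptor kinase) at 3.80 and 3.92 after calcium-dependent protein kinase 34. Transporters had 27 of 155 (17.4%), including FvH4_1g24480 and FvH4_1g25840, both of the ABC type, at 4.08 and 3.89 and at 3.80 and 3.87. The peak of FvH4_1g25840 was called intron in replicate 2. Calcium genes had 9 of 57 (15.8%), with FvH4_5g27670 (a calmodulin-binding transcription activator) at 3.72 and 4.33 and FvH4_4g15760 (CML22) at 3.38 and 3.35. Ubiquitin and F-box genes had 53 of 426 (12.4%), with FvH4_3g44280 (an E3 ligase described as LIN-1) at 4.31 and 3.95 and FvH4_6g25340 (a ubiquitin-associated domain protein) at 3.87 and 4.07, though its peaks were called promoter in both replicates. Histone and chromatin genes had 9 of 58 (15.5%), namely FvH4_3g12610 (CHROMATIN REMODELING 4) at 3.86 and 4.22, FvH4_7g16370 (ATX3) at 4.44 and 3.48, FvH4_2g27880 (ASHH2) at 3.17 and 3.79, both histone methyltransferases, and 6 others. The peak of ASHH2 was called intron in replicate 1.

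Several other lists had shares under 11.5% in the merged list, as the flavonoid and MADS-box lists did. Pentatricopeptide repeat genes, whose proteins act on RNA in organelles, had a 5' UTR entry in 8 of 280 (2.86%, 1.45 to 5.54), with 3.27% and 4.14% in the replicate lists. Of their 323 entries 67.2% were in exons, against 26.4% of all entries. The first by fold enrichment were FvH4_5g31860 at 3.72 and 3.54, FvH4_3g26660 at 3.32 and 3.64 and FvH4_6g52550 at 3.68 and 2.99. The peaks of FvH4_6g52550 were called promoter in both replicate lists. Cytochrome P450 genes had 3 of 68 (4.41%, 1.51 to 12.2), namely FvH4_6g40310, FvH4_6g29060 and FvH4_2g12910, with means of 3.27, 3.06 and 2.63. Both replicate lists called the peak of FvH4_6g40310 exon. Chaperone genes had 5 of 89 (5.62%, 2.42 to 12.5), but 9.35% and 11.7% in the replicate lists. Their 3 strongest were dnaJ genes, FvH4_4g35640, FvH4_3g08630 and FvH4_7g30440, with means of 3.19, 2.93 and 2.68.

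Ribosomal protein genes had 10 of 120 (8.33%, 4.59 to 14.7), with FvH4_3g39480 (40S S4-3) at 4.29 and 4.01, FvH4_4g17990 (40S S21-2) at 3.51 and 4.13 and FvH4_1g00510 (60S L5) at 3.21 and 3.51. Their 10 entries lay close to the start, at a median of 66.0 bp against 187 bp for all 5' UTR entries. RNA helicase and splicing genes had 8 of 81 (9.88%, 5.09 to 18.3), with 10.4% and 10.3% in the replicate lists. FvH4_3g45200, FvH4_4g15972 and FvH4_4g29860 were the strongest with means of 4.01, 3.79 and 3.55. The peaks of FvH4_4g15972 were called promoter in replicate 1 and intron in replicate 2. Disease resistance genes had 11 of 122 (9.02%, 5.11 to 15.4). They had 10.2% in replicate 1 and 11.6% in replicate 2, against 11.9% and 11.6% of all genes. Their strongest were FvH4_5g02660 at 4.44 and 4.04, FvH4_5g38740 at 4.44 and 3.48 and FvH4_3g09290 at 3.06 and 4.51. The peaks of FvH4_5g02660 were called intron in both replicate lists. Photosystem and chlorophyll genes had 4 of 20 in replicate 1, above the 11.9% of all its genes, and 0 of 20 in replicate 2, which allows a share of up to 15%. In the merged list they had 1 of 12, FvH4_2g22470 (a photosystem II protein) at 2.65 and 2.30, whose peaks were called intron and exon in the replicate lists. Uncharacterized genes had 270 of 2720 (9.93%, 8.86 to 11.1), led by FvH4_7g22670, FvH4_4g08540 and FvH4_3g22550 with means of 4.38, 4.34 and 4.34.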

How the data were processed

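BWA and MACS2 are named in the submitters' processing notes, with no settings. Versions and the build are not given in the sources used here. Each replicate has its own peak table, per the file headers, with −log10 p-values, −log10 q-values and a fold enrichment (a ratio of signal to background), all as deposited by the authors. The merged list gives their means, per the file headers, and in all 13283 entries the mean fold equalled the average of both replicates within 0.001. The lowest fold was 2.00 and the lowest −log10 q 3.03 over both replicate lists. Gene, class and distance are the authors' deposited annotation, and coordinates are those of the deposited lists. No file of the input sample was analysed here.

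Members and word lists were chosen with earlier results of these data known. Named genes were the 10 strongest and 2 weakest entries, the 3 strongest of each word list, genes with 3 entries, the 3 farthest entries, the 2 of widest replicate difference and MADS-box members. The remaining auxin response factor and Aux/IAA genes, the second entry of FvH4_4g23650 and the class of single peaks were added after their values were seen. Of the 1227 genes, 878 had a protein accession in the RefSeq table of assembly FraVesHawaii_1.0, which was not used further. Python 3.11.15, pandas 2.3.3 and scipy 1.17.1 were used, and the functions were tested on simulated data. The alternatives were each replicate list, a mean −log10 p of at least 15, entries at or above the median fold, chromosomes alone, 1 entry per gene, members within 1000 bp, and reciprocal overlap of 50%.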

Additional observations from a re-analysis of the deposited data

How the results depend on the processing

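The values were called moved where they differed from the merged list by more than 1 SD of the 2 replicate lists, or left the 95% Wilson interval. The SD comes from the same 2 replicate values, so it is wide where they disagree and narrow where they are close. Counts of moved values are therefore not a measure of stability. The share of entries in 5' UTRs (9.45%) was 8.50% to 9.04% with a single replicate list and 9.89% with 1 entry per gene. The median distance (187 bp) was 173 to 175 bp with a single list (where midpoint and distance gave a single start for 45 of 3293 and 55 of 4033 transcripts with several peaks, so the distance is from another point and is not the same quantity), 203 bp at a mean −log10 p of at least 15, 192 bp at or above the median fold and 183 bp within 1000 bp. The difference in median fold enrichment (-0.00048) was 0.0234 to 0.0580 with a single list, so its sign turned, -0.0510 at the stricter p and -0.0275 with 1 entry per gene. The share in the highest 10% (8.37%) was 9.49% to 10.3% with a single list, on either side of 10%, and 7.11% at the stricter p. The excess of transcription factors among 5' UTR genes over other genes (3.70 percentage points) was 2.75 to 3.73 with a single list, 6.56 at the stricter p and 6.17 at or above the median fold. The share of entries overlapping a 5' UTR peak in both replicate lists (68.1%) was 64.6% with reciprocal overlap and 77.5% at the stricter p. The cause of these shifts was not tested. Another 15 recomputed values stayed within the limit. Shares of 10 word lists in each replicate list were added after the data were seen. Of these, 11 of 20 moved, including chaperones (5.62% in the merged list, 11.7% in replicate 2), MADS-box (6.45% and 15.4%) and the auxin family (58.8% and 10 of 25 genes). No paired analysis was possible because the labels give a replicate number to the IP samples alone. The comparison of promoter motifs was not run. Without read counts the depth of the libraries, and thus the precision of each fold enrichment, is unknown.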
